A study of Mus musculus with 9 samples.

Results

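The genes described here encode the early blood transcription factor complex built around Tal1, Lmo2 and Gata proteins. They are 7 named genes (Tal1, Lyl1, Lmo2, Ldb1, Gata1, Gata2 and Zfpm1) of 21883 protein-coding genes, chosen by name and located on the mouse mm10 build with a RefSeq table of the same assembly. Chromatin immunoprecipitation followed by sequencing (ChIP-seq), in which an antibody pulls down the DNA that a protein sits on, was used to map the histone deacetylases Hdac1 and Hdac2. The cells were haemogenic endothelium, endothelial cells that give rise to blood, differentiated in culture from embryonic stem cells of 3 lines of the C57BL/6 strain, named Bry, Hd1_loxlox and Hd2lox. The Bry cells were at passage 16 to 19 and the other cells at passage 25 to 30. The labels record no treatment, describe no allele of any line, and do not say that the lines were grown in separate experiments. Each line gave 1 Hdac1 library (Diagenode antibody), 1 Hdac2 library (abcam antibody) and 1 input library. Each antibody was thus used once in each of n = 3 lines. The data are 6 lists of peak positions with no heights or read counts, and input was not analysed here.

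Between 5161 and 9279 peaks were listed per library. The Hdac2 list of Hd1_loxlox stood apart: it had a peak within 1000 bp of an annotated end of 2.71% of all protein-coding genes, where the other lists had 13.5% to 34.4%. The depth of the reads is unknown, and a missing peak can reflect too few of them. Median peak width ran from 822 bp (Hdac2 of Hd2lox) to 1475 bp (Hdac1 of Hd1_loxlox). The antibody and the protein it detects cannot be told apart here, nor can the Bry line and its lower passage. Peaks measure no expression, so the labelled cell type could not be checked by its marker genes.

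In blood formation the basic helix-loop-helix protein Tal1, or its close relative Lyl1, pairs with an E protein and binds E-box DNA. The LIM-only protein Lmo2 and the adaptor Ldb1 bridge this pair to a Gata factor bound nearby, and Ldb1 can join distant sites by binding itself. Tal1 and Lmo2 are needed for the first blood cells, Gata2 for blood stem and progenitor cells, and Gata1 with its cofactor Zfpm1 (also called FOG1) for red cells and platelets. Histone deacetylases remove acetyl groups from histone tails and work within co-repressor complexes, and they are also found at active genes.

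Hdac1 had a peak in or within 50 kb of 6 of the 7 genes in every line (for all protein-coding genes the Bry list gave 56.7%, that of Hd1_loxlox 55.8% and that of Hd2lox 53.6%), and no list had one in or within 50 kb of Gata1. At Tal1, Ldb1, Gata2 and Zfpm1 a start region carried Hdac1 in all 3 lines (15.1% of all genes with a RefSeq start). Lyl1 had Hdac1 at its start in Bry and Hd1_loxlox only. The Gata2 region was that of the inner start, while its outer start was covered in Hd2lox alone. To show these places, the DNA just before a start is printed for the genes on which the results turn, from RefSeq on GRCm38.p6, 5′ to 3′ on the strand of the gene. Capitals mark 3 motifs on either strand, GATAA (Gata factors), CAGNTG (an E-box of the kind that Tal1 pairs bind) and CCGGAA (ETS factors), and a match on the opposite strand reads as its reverse complement, such as TTATC.

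The outer start of Tal1, which 3 of the 6 lists overlapped (chr4:115056176-115056425, plus strand), comes first. That of Lyl1, which 3 lists covered whole, is given up to its outer annotated end (chr8:84701207-84701422, plus strand). The Ldb1 start that 4 lists covered whole follows (chr19:46045312-46045561, minus strand), then the Gata1 start with no peak (chrX:7967911-7968160, minus strand). The last pair is the outer start of Gata2 (chr6:88193641-88193890, plus strand), covered in Hd2lox alone, and its inner start (chr6:88198414-88198663, plus strand), covered whole by 3 lists.
Tal1 outer start: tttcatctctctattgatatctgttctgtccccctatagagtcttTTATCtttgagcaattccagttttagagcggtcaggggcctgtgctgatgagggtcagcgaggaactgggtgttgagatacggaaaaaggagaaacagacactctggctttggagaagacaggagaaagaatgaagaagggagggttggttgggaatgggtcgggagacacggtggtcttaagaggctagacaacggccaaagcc
Lyl1 start: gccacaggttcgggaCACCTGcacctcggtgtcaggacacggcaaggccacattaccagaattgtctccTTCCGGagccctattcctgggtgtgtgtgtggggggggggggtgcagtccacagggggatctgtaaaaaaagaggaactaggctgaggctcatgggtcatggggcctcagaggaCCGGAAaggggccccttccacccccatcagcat
Ldb1 start: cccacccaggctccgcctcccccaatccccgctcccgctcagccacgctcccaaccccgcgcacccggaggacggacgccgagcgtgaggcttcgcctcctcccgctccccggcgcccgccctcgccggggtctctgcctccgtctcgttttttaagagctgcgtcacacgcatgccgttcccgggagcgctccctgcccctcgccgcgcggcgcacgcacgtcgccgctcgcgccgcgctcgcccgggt
Gata1 start: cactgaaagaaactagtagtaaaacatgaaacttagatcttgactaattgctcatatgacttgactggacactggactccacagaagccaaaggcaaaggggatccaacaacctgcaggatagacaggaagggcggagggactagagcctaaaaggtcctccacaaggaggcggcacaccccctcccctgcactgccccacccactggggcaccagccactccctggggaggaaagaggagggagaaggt
Gata2 outer start: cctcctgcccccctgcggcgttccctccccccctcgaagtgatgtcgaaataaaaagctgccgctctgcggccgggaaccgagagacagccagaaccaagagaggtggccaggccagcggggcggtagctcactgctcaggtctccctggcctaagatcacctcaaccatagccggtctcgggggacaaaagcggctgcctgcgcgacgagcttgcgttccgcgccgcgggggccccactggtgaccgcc
Gata2 inner start: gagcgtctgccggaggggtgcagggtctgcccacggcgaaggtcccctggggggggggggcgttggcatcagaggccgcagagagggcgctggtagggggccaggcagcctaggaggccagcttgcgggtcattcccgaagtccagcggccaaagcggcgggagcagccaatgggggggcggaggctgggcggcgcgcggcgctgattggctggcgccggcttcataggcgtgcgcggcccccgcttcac

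The Tal1 stretch holds 1 GATAA match, the Lyl1 stretch 1 CAGNTG and 2 CCGGAA matches, and the others none of the 3 motifs. The promoter table gives a window of 300 bases around each start (250 before and 50 after) for 6 of the 7 genes (all but Lmo2). Over the 21262 windows of protein-coding genes, GATAA was in 22.5%, CAGNTG in 48.6%, the wider E-box CANNTG in 69.0% and CCGGAA in 18.7%. The printed stretches stop before the start, so they are shorter than these windows. In the windows, the outer Tal1 start and the inner Gata2 start each also held 1 CAGNTG. Most of the members' windows that peaks covered were above the median of all windows in the dinucleotide CpG. The ratio of observed to expected CpG was 1.19 at the covered Ldb1 start, 0.956 at Zfpm1, 0.900 and 0.760 at the outer and inner Gata2 starts and 0.647 at the outer Tal1 start. Lyl1 was the exception, covered at a ratio of 0.261. The Gata1 window had 0.167 and the uncovered innermost Ldb1 start 0.257, against a median of 0.567 over all windows. The other uncovered Ldb1 start, at 0.677, lay above that median.

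**Figure D1:**
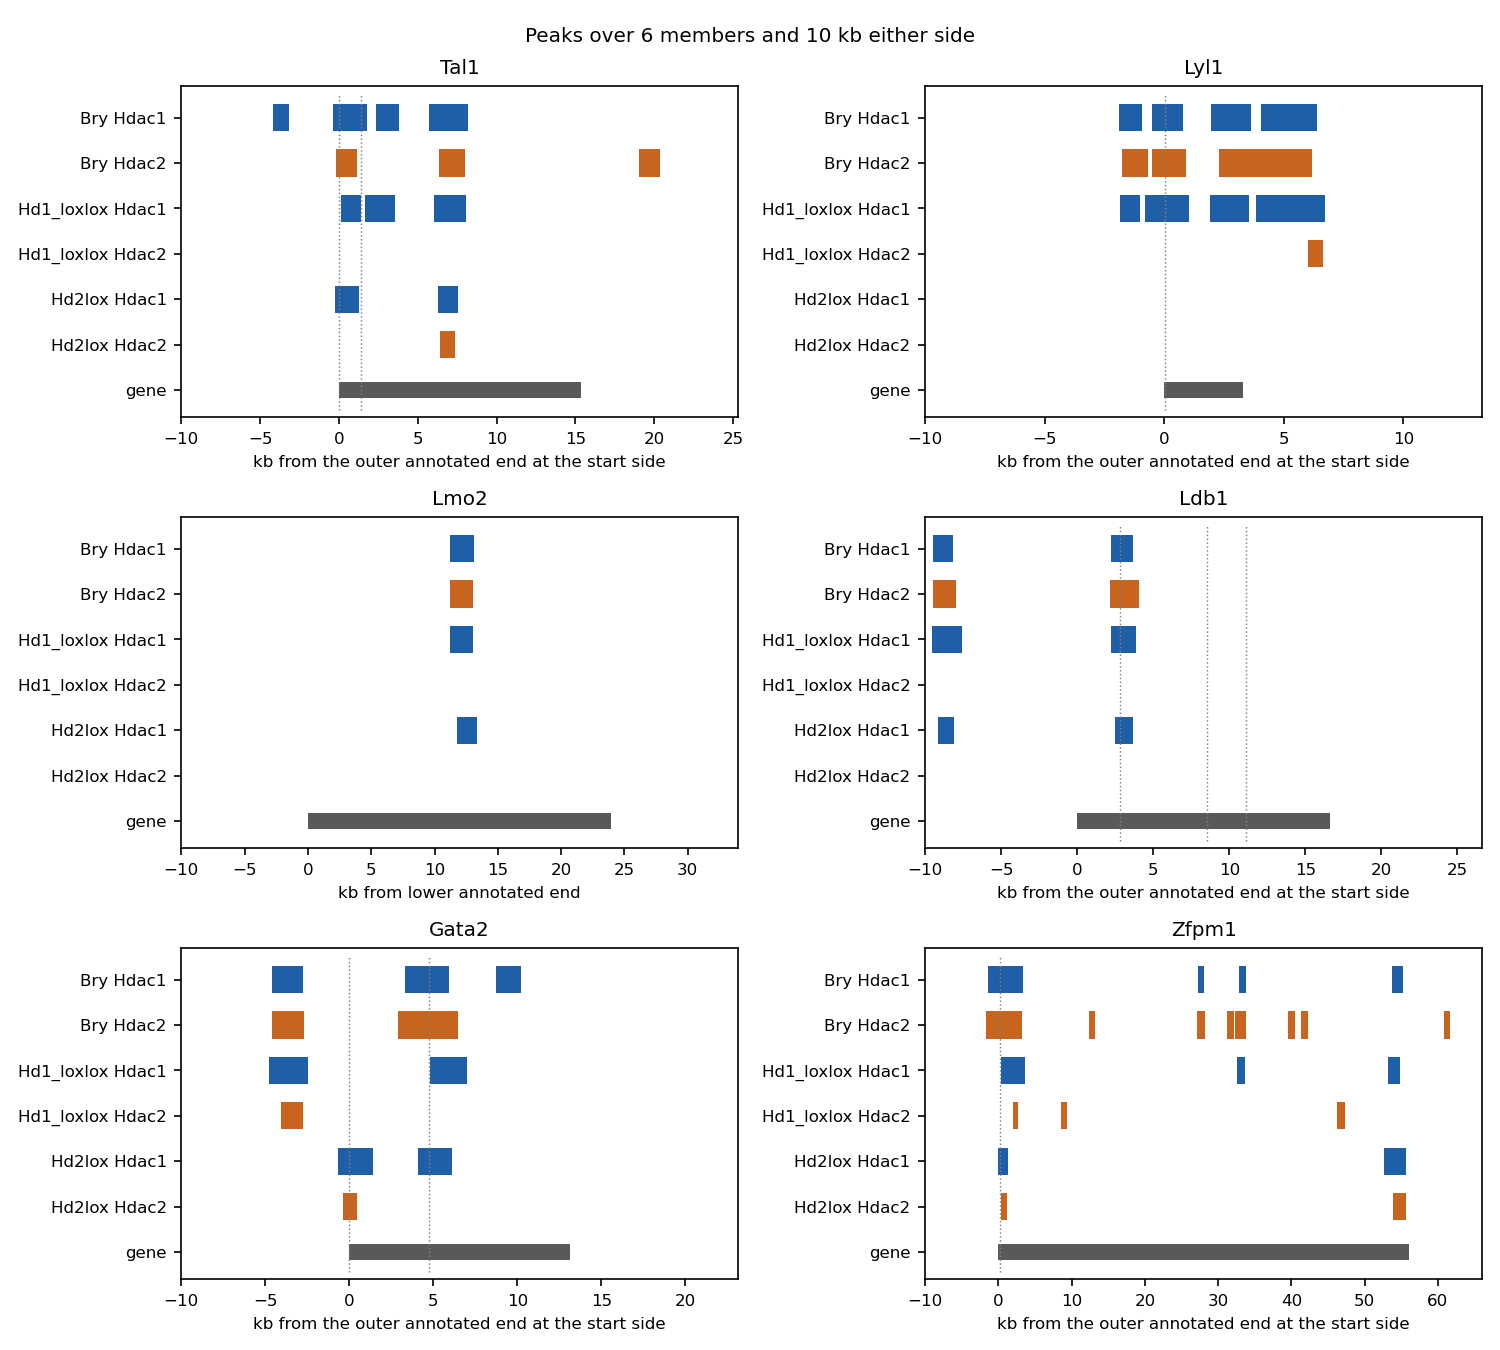
Peaks of the 6 lists (rows; blue Hdac1, orange Hdac2) over the 6 members that had any, with 10 kb either side, in kb from the outer annotated end on the start side of the gene (for Lmo2, from its lower end). The grey bar is the gene and dotted lines are starts in the RefSeq promoter table; inside the gene Lmo2 and Ldb1 each carry 1 place in 4 lists, and the Lyl1 gene is empty in both Hd2lox rows.

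Tal1 and Lyl1 are the helix-loop-helix members that contact DNA. At Tal1 (chr4:115056426-115071755) Hdac1 sat at the start region and at a second place inside the gene in every line. The start-region Hdac1 peak was 2146 bp wide in Bry, 1280 bp in Hd1_loxlox and 1532 bp in Hd2lox. In Bry it covered both starts in the table, which are 1385 bp apart. In Hd2lox it covered the outer start, and in Hd1_loxlox the inner one. Of the Hdac2 lists only Bry had a peak there, 1343 bp wide and over the outer start. Next to it Bry and Hd1_loxlox each had another Hdac1 peak, 1414 and 1913 bp wide, and Bry Hdac1 had one more, 4203 to 3193 bp before the outer start. The lncRNA gene Gm33786 (115057622-115059310) lies inside Tal1 here, and the positions cannot assign a peak to one of the genes.

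The second Tal1 place was the most shared of the gene, in the 3 Hdac1 lists and in Hdac2 of Bry and Hd2lox. Those 5 peaks had 911 bp in common (115062868-115063778), which is the whole of the narrowest peak, Hdac2 of Hd2lox, and 36.9% of the widest, Hdac1 of Bry. Their centres lay within 268 bp of each other, and the widest ran from 5724 to 8190 bp past the outer start. Hdac1 was thus at both places in all 3 lines, while Hdac2 was at both in Bry and at the inner place alone in Hd2lox. The Hdac2 list of Hd1_loxlox had no peak in the gene.

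Past the far end of Tal1, where enhancers active in blood stem cells and in red cells are known, peaks came from Bry. A Bry Hdac2 peak lay 19054 to 20395 bp past the outer start. Bry Hdac1 and Bry Hdac2 shared a place 38818 to 40156 bp past it, with 1063 bp in common, or 88.3% of the wider peak. No list of the other lines had a peak at either. A further place, in Cyp4x1, a cytochrome P450 gene, was shared by both lists of Bry and of Hd1_loxlox. There the Hdac2 peak of Hd1_loxlox was 1921 bp wide, at the 98.6th percentile of width in its own list.

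Lyl1 (chr8:84701423-84704716) divided the lines. Its single start was covered by an Hdac1 peak of 1308 bp in Bry and 1839 bp in Hd1_loxlox, and by an Hdac2 peak of 1386 bp in Bry. At its far end Bry had Hdac1 peaks of 1702 and 2357 bp and Hd1_loxlox of 1629 and 2923 bp, and the Hdac2 peak of Bry, 3886 bp wide, was at the 99.6th percentile of width in its list. Neither Hd2lox list had a peak over the gene or at its ends. The nearest Hd2lox peaks were those at the shared edge of Nacc1 and Trmt1, a tRNA methyltransferase gene, 13.2 and 13.3 kb before the gene, and that place was in 5 lists.

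The far end of Lyl1 overlaps the annotated end of Nfix (84704712-84801238), a nuclear factor I gene, by a few bases. The peaks of 1702, 1629 and 3886 bp overlap both genes and cannot be assigned to either, while those of 2357 and 2923 bp overlap Nfix only and lie within 1000 bp of the Lyl1 end. The 942 bp Hdac1 peak and the 1110 bp Hdac2 peak before the start in Bry likewise overlapped the end of Trmt1. The Hdac2 list of Hd1_loxlox had 1 peak in the neighbourhood, 619 bp wide, inside Nfix.

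Lmo2 and Ldb1 are the bridging members, which bind no DNA themselves. Each had 1 peak inside the gene, away from its outer ends, in the same 4 lists: Hdac1 of all 3 lines and Hdac2 of Bry. At Lmo2 (chr2:103957903-103981878) the peak was 1889 bp wide for Hdac1 and 1818 bp for Hdac2 in Bry, 1806 bp for Hdac1 in Hd1_loxlox and 1565 bp for Hdac1 in Hd2lox. The 4 peaks had 1217 bp in common (103969704-103970920), and their centres spanned 468 bp. The lncRNA gene Gm38515 (103966943-103980877) overlaps Lmo2 here. The nearest Hdac2 peak was 54.9 kb from the gene in Hd2lox and 138 kb in Hd1_loxlox.

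At Ldb1 (chr19:46031525-46048145) the 4 peaks lay over 1 of the 3 starts in the table, 2834 bp inside the outer end. They were 1445 bp (Hdac1) and 1929 bp (Hdac2) wide in Bry, 1666 bp in Hd1_loxlox and 1208 bp in Hd2lox, with centres within 187 bp. The bases common to all 4 (46044489-46045660, 1172 bp) made up 97.0% of the narrowest peak and 60.8% of the widest. The other two Ldb1 starts had no peak within 1000 bp in any list. The nearest Hdac2 peak of Hd1_loxlox was 62.2 kb from the gene and that of Hd2lox 134 kb.

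Gata1 and Gata2 encode the zinc finger proteins that bind GATA sequences, and Gata2 is the earlier of the pair in blood formation. At Gata2 (chr6:88193891-88207032) the lines had peaks at different places at and before the outer start. Hd2lox alone covered the outer start, with an Hdac1 peak of 2114 bp and an Hdac2 peak of 809 bp that lay wholly inside the Hdac1 peak. Bry and Hd1_loxlox had no peak there. Instead they had a peak further upstream in both of their lists, 1830 bp (Hdac1) and 1924 bp (Hdac2) wide in Bry and 2342 and 1337 bp wide in Hd1_loxlox. These 4 peaks shared 1292 bp (88189825-88191116), 4066 to 2775 bp before the outer start, which is 96.6% of the narrowest. Hd2lox Hdac2 had 2 peaks of its own further upstream, 832 and 794 bp wide, inside the lncRNA gene Gm38708.

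The inner start of Gata2, 4773 bp past the outer one, was covered by the Hdac1 peaks of Bry (2634 bp) and Hd2lox (2023 bp) and by the Hdac2 peak of Bry. That last peak was 3561 bp wide, at the 99.4th percentile of its list. The Hd1_loxlox Hdac1 peak (2225 bp) began 3 bp past this start and ran into the gene. One more Hdac1 peak, in Bry only, lay 8741 to 10225 bp past the outer start (88202632-88204116), in the part of the gene that holds an enhancer known to be needed for blood stem cells to form. That lncRNA gene (88141848-88198284) overlaps Gata2 and runs across its outer start and the upstream place.

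**Figure D2:**
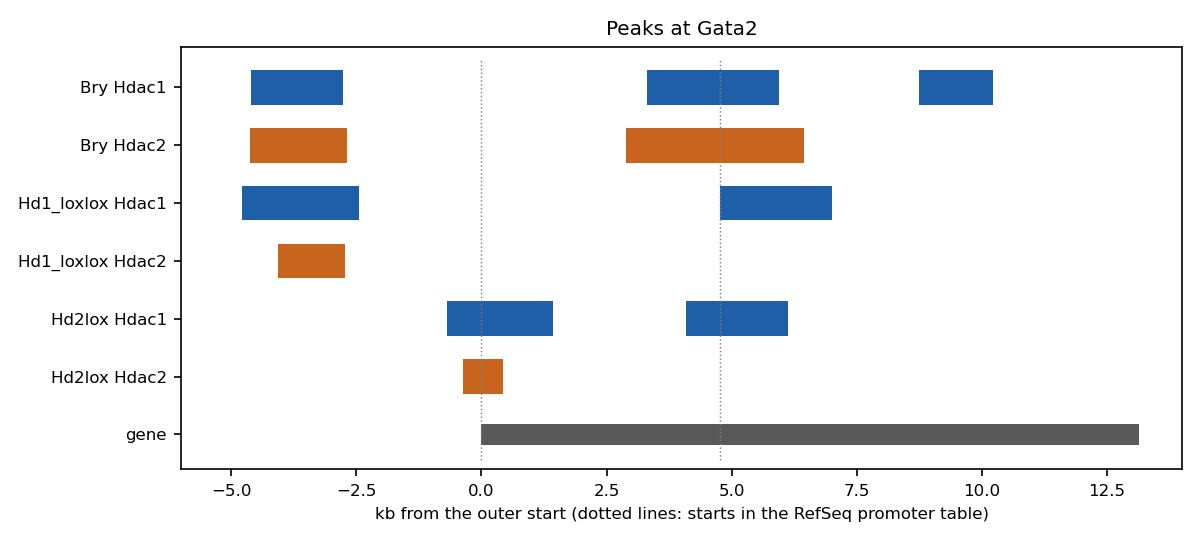
Peaks of the 6 lists at Gata2 in kb from the outer start (blue Hdac1, orange Hdac2; grey bar, the gene; dotted lines, the starts in the promoter table). The outer start is covered by the 2 Hd2lox lists alone, the upstream place by both lists of Bry and Hd1_loxlox, and the inner start region by 3 Hdac1 lists and Hdac2 of Bry.

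Gata1 (chrX:7959260-7976663), which takes over from Gata2 in red cell precursors, had no peak in the gene or within 50 kb in any of the 6 lists. The nearest peaks were 74.4 kb away for Hdac1 in Bry, at Slc35a2, a nucleotide sugar transporter gene, and 97.2 kb away for Hdac1 in Hd2lox, at Suv39h1, a histone methyltransferase gene. The other lists except Hdac2 of Hd1_loxlox had their nearest peak at Otud5, a deubiquitinase gene, 116 to 117 kb away. The X chromosome carried few peaks in all lists, from 0.0388% of the peaks (Hdac2 of Hd1_loxlox) to 1.48% (Hdac1 of Hd2lox). Of 966 protein-coding genes on X, 74.0% had no peak within 50 kb in any list, against 19.4% of all genes, so the absence at Gata1 is shared by most genes of its chromosome.

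Zfpm1 (chr8:122281856-122337862), the cofactor that binds the Gata1 and Gata2 proteins, carried the most peaks of the members in or at the gene, 21 of 57. It was the only member with a peak over the gene in all 6 lists. Zfpm1 is also the longest member, 56007 bp against a median of 16621 bp, so it has the most room for peaks. The share of all genes with a peak in all 6 lists was not computed. The start region held very wide peaks in Bry, 4655 bp for Hdac1 and 4904 bp for Hdac2, at the 99.8th and 99.9th percentiles of width. The Hdac1 peak of Hd1_loxlox was 3361 bp wide (98.2th percentile). In Hd2lox the peaks were narrower, 1322 bp for Hdac1 (38.9th percentile) and 760 bp for Hdac2 (13.8th percentile). The Hdac2 peak of Hd1_loxlox, 655 bp wide and 1959 bp inside the outer end, lay within the Hdac1 peak of its own line but touched neither Hd2lox peak, so no single base was common to all 6 lists. The lncRNA gene Gm39269 (122273878-122285174) overlaps this region.

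Near the other end of Zfpm1 the pattern between the lines was different. Hdac1 was there in all 3 lines, 1536 bp wide in Bry, 1722 bp in Hd1_loxlox and 2898 bp in Hd2lox, and Hdac2 in Hd2lox only, 1777 bp wide. In Hd2lox both peaks were among the widest of their lists (97.9th and 99.4th percentiles). Between the ends Bry Hdac2 had 6 peaks and Bry Hdac1 had 2, and both of the Bry Hdac1 places were shared with Bry Hdac2. Hd1_loxlox Hdac1 shared 1 of them, and the Hdac2 list of Hd1_loxlox had 2 further peaks of its own, 857 and 1035 bp wide. Hd2lox had none between the ends.

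Across the members, 110 peaks lay in the genes or within 50 kb, and they merged into 41 regions. Of these, 17 were in 1 list only, 8 of them in Hdac2 of Bry, and 13 were in 4 or more lists. Hdac2 of Bry was also the list with the most peaks, 9279. Regions were not merged for other genes, so these counts have no share over all genes beside them.

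**Figure D3:**
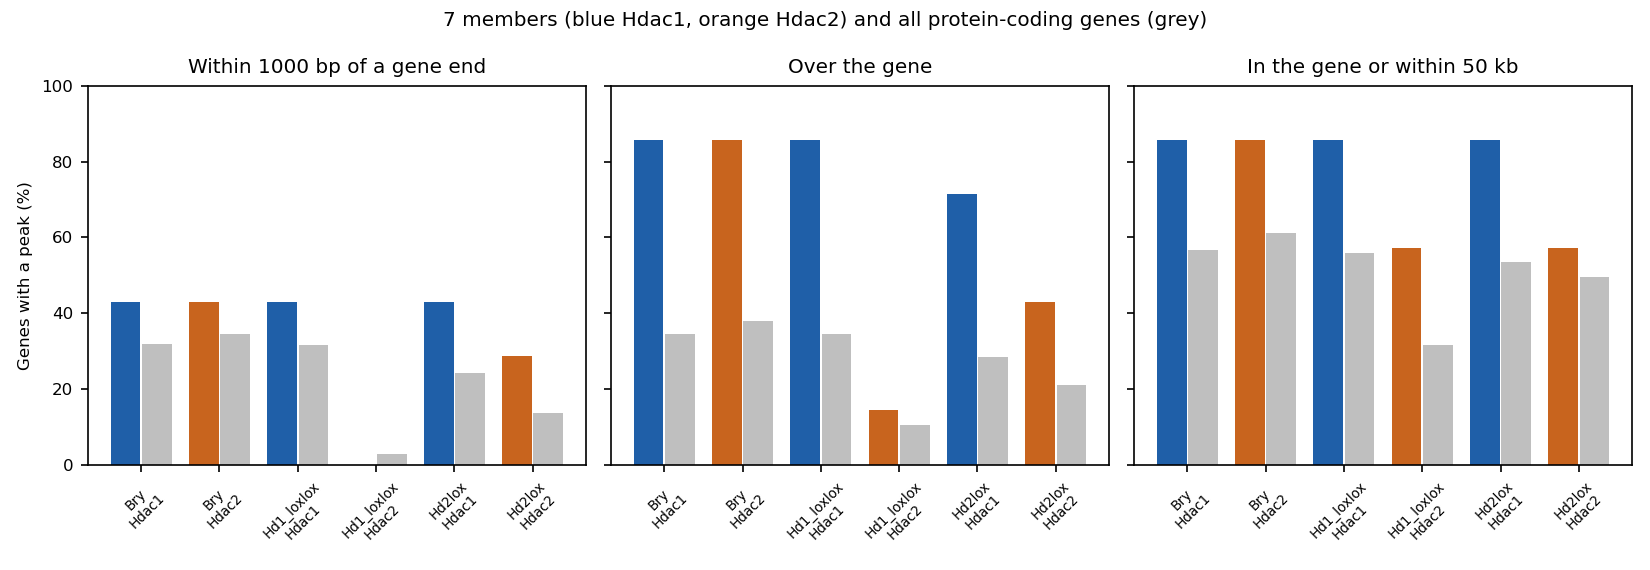
Share of genes with a peak (%) in each of the 6 lists under 3 rules: within 1000 bp of a gene end, over the gene, and in the gene or within 50 kb. Coloured bars are the 7 members (blue Hdac1, orange Hdac2) and grey bars all 21883 protein-coding genes; at gene ends the members' bars reach at most 42.9%, and over the gene 85.7% in 3 lists.

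The counts by rule can be read beside all genes. At gene ends the Hdac1 lists had a peak at 3 members in each line, while the share over all genes was 31.9% for Bry, 31.7% for Hd1_loxlox and 24.3% for Hd2lox. The Hdac2 lists had one at 3 members in Bry (34.4%), 0 in Hd1_loxlox (2.71%) and 2 in Hd2lox (13.5%). Hdac1 at an end in at least 2 lines was found for 3 of the 7 members (Tal1, Lyl1 and Zfpm1), or 42.9%, against 30.2% of all protein-coding genes, and in all 3 lines for Tal1 and Zfpm1 (all genes 14.6%). For Hdac2 it was 1 member (Zfpm1), 14.3%, against 10.6%. With 7 members, 1 gene more or fewer moves such a share by 14.3 percentage points. Over the gene as a whole, the Hdac1 lists had a peak at 6 members in Bry (all genes 34.4%), 6 in Hd1_loxlox (34.4%) and 5 in Hd2lox (28.5%). For Hdac2 the list of Bry had one over 6 members (37.9%), that of Hd1_loxlox over 1 (10.5%) and that of Hd2lox over 3 (21.0%). By this rule 6 members had Hdac1 in at least 2 lines (85.7%, against 33.2% of all genes) and 3 had Hdac2 (Tal1, Gata2 and Zfpm1, 42.9%, against 17.9%). All 3 lines had Hdac1 at 5 members (all genes 16.6%) and Hdac2 at Zfpm1 alone (3.30%). The median gene length was 16621 bp for the members and 17170 bp for all protein-coding genes. Within 50 kb all 3 Hdac1 lists had a peak at the same 6 members (all genes 56.7% in at least 2 lines and 40.6% in all 3). The Hdac2 lists had one at 6 members in Bry (61.2%) and at 4 in Hd1_loxlox (31.7%) and Hd2lox (49.6%). These 4 (Tal1, Lyl1, Gata2 and Zfpm1) had Hdac2 in all 3 lines (all genes 16.5%; in at least 2 lines 49.2%). Not all of those peaks were at the members: that of Hd1_loxlox near Tal1 lay in Cyp4x1, 44.1 kb away. Near Lyl1 those of Hd1_loxlox and Hd2lox overlapped only neighbouring genes. No member had Hdac2 at a gene end in all 3 lines, which 0.603% of all genes had.

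Windows around outer ends miss starts inside genes, so starts in the promoter table were also used, a choice made after seeing the data. Within 1000 bp of any start in the promoter table, 5 of 6 members had Hdac1 in at least 2 lines (Tal1, Lyl1, Ldb1, Gata2 and Zfpm1), against 31.3% of the 17491 genes in the table, and 2 had Hdac2 (Gata2 and Zfpm1), against 10.7%. The difference came from Ldb1 and Gata2, whose peaks lay at inner starts. For Hdac2 at Gata2 the pair of lines did not share a start, since Bry Hdac2 was at the inner and Hd2lox Hdac2 at the outer one.

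The number of bases covered by peaks in each gene and 50 kb either side was then compared between antibodies over the 3 lines. At Tal1 the Hdac1 lists covered 9502 bp in Bry, 6836 bp in Hd1_loxlox and 2746 bp in Hd2lox, and the Hdac2 lists 6926, 1921 and 911 bp. Within each line Hdac1 covered more, but the Bry Hdac2 value exceeds 2 of the Hdac1 values and the groups overlap. At Lyl1 the Hdac1 lists covered 15985, 15627 and 1484 bp and the Hdac2 lists 15875, 619 and 827 bp in the same order. Bry was thus nearly equal for the antibodies, Hd1_loxlox had a wide gap, and Hd2lox was low for both. In Lyl1 and 1000 bp either side alone, the Hdac1 lists covered 3315, 3937 and 0 bp. The Hdac2 lists covered 3717, 0 and 0 bp there. Most of the length in both Bry lists and in Hdac1 of Hd1_loxlox thus lay further out, near other genes.

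At Lmo2 the covered length was 3025, 1806 and 1565 bp for Hdac1 and 1818, 0 and 0 bp for Hdac2. At Ldb1 it was 5946, 4758 and 2284 bp for Hdac1 and 7170, 0 and 0 bp for Hdac2. Both genes thus had Hdac2 in Bry alone, where it exceeded 2 of the 3 Hdac1 values at Lmo2 and all 3 at Ldb1. In Ldb1 and 1000 bp either side alone, the Hdac1 lists covered 1445, 1666 and 1208 bp. The Hdac2 lists covered 1929, 0 and 0 bp there, and the rest lay further out, near other genes. At Gata2 the covered length within 50 kb was 5949, 4567 and 4137 bp for Hdac1 and 5485, 1337 and 2435 bp for Hdac2. At Zfpm1 it was 9251, 8062 and 5500 bp for Hdac1 and 13725, 3199 and 3326 bp for Hdac2, with Bry Hdac2 the highest of the 6. In these 4 genes, as in the pair above, the 2 Hdac2 lists other than Bry were below every Hdac1 list. Those lists were also low over all genes with a covered base, with medians of 0 bp (Hd1_loxlox) and 780 bp (Hd2lox). The Hdac1 medians were 1550 bp in Bry, 1567 bp in Hd1_loxlox and 1362 bp in Hd2lox. The share of all genes with this order was not computed.

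The mean for Hdac1 was above that for Hdac2 at each of these 6 genes. It was 6361 ± 3403 bp against 3253 ± 3221 bp at Tal1 and 11032 ± 8271 bp against 5774 ± 8749 bp at Lyl1 (SD, n = 3 each). The SDs are as large as the differences at both. The difference was positive within each line at Tal1, Lyl1, Lmo2 and Gata2, though by only 110 bp at Lyl1 in Bry. The share of all genes with a positive difference in every line was not computed. The Hdac2 list of Hd1_loxlox was low over all genes. At Lmo2 the mean difference of 1526 bp was above the SD of either antibody (783 bp for Hdac1 and 1050 bp for Hdac2). Exact two-sided permutation p was 0.3 at Tal1, Lyl1, Lmo2 and Gata2, 0.6 at Ldb1 and 0.8 at Zfpm1, where 0.1 is the smallest this design allows. No gene could pass 0.05, so the test cannot tell whether the antibodies differ. Adjusted over the 17632 genes with a covered base by the Benjamini-Hochberg method, these exact permutation p-values became 0.944 for the first 4 of these genes and 1 for Ldb1 and Zfpm1. At no member were all Hdac1 lists above all Hdac2 lists, which held for 6.72% of the genes tested, nor all Hdac2 lists above all Hdac1 lists (0.522%). The median difference over the members was 1799 bp in favour of Hdac1, against 549 bp over all genes tested, of which 70.6% had the higher mean for Hdac1. The median was 3375.0 bp without Bry, 530.0 bp without Hd1_loxlox and 924.3 bp without the Hdac2 list of Hd1_loxlox alone. Without Hd1_loxlox the Lyl1 difference of 5258 bp was 383.5 bp, that of Ldb1 530.0 bp in place of 1939 bp and that of Gata2 1083.0 bp in place of 1799 bp. Without its Hdac2 list alone these were 2681.0, 744.3 and 924.3 bp. Without Bry the Ldb1 difference was 3521.0 bp. At Zfpm1 the difference of 854 bp was -1150.0 bp without Hd1_loxlox, 3518.5 bp without Bry and 194.5 bp without Hd2lox.

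**Figure D4:**
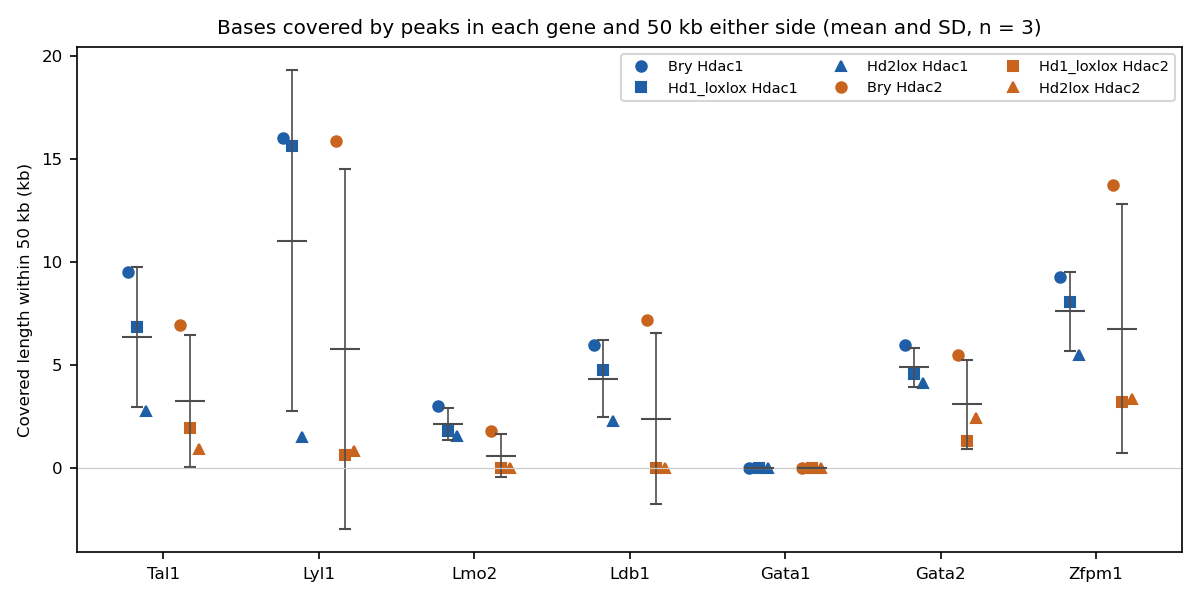
Bases covered by peaks (kb) in each member and 50 kb either side, for each list (circle Bry, square Hd1_loxlox, triangle Hd2lox; blue Hdac1, orange Hdac2), with the mean and SD of the 3 lines. Bry points are the highest of their antibody at all 6 genes with peaks, and Gata1 is at 0 in every list. The share of all genes with Bry highest was not computed. Over all genes with a covered base the Hdac2 median was also highest in Bry (1763 bp, against 0 and 780 bp). The Hdac1 medians were 1550 bp in Bry, 1567 bp in Hd1_loxlox and 1362 bp in Hd2lox.

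Other genes of the complex and its network were counted at gene ends in the same way, and those named with peaks in fewer than 5 lists were chosen after their values were seen. Of 12 partner genes, 9 had Hdac1 in at least 2 lines (75.0%, all genes 30.2%) and 4 had Hdac2 (33.3%, all genes 10.6%). These 4 were the E protein genes Tcf3 and Tcf12, whose products pair with Tal1 and Lyl1, in 5 lists each, and Ssbp3 in 5 and Ssbp4 in 6 lists, which encode proteins that bind Ldb1. An end peak in 5 or 6 lists was found at 7.15% of all genes, and among the members at Zfpm1. The co-repressor gene Cbfa2t3, also called Eto2, was in 4 lists, as were Kdm1a and Rcor1, a histone demethylase and its partner. The share of all genes with an end peak in 4 lists was not computed. Each of the 12 had an end peak in at least 1 list, while 52.2% of all genes had none. The gene Hdac1 itself had an end peak in 2 lists and the gene Hdac2 in 4.

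Of 12 related genes used mostly outside this complex in blood (Tal2, Nhlh1, Nhlh2, Lmo1, Lmo3, Lmo4, Ldb2, Gata3, Gata4, Gata5, Gata6 and Zfpm2), 4 had Hdac1 in at least 2 lines (33.3%) and 1 had Hdac2 (8.33%), both near the shares of all genes, and 7 had no end peak in any list, as had 52.2% of all genes. Runx1, Fli1 and Erg bind many blood enhancers together with the complex. Of these, Fli1 alone had Hdac1 in at least 2 lines (all genes 30.2%), and none had Hdac2 (all genes 10.6%). Some genes of both lists without an end peak had peaks over the gene. Gata4 and Erg had one in 5 lists each, Runx1 in 4, Gata3 and Lmo3 in 2 each and Ldb2 in 1. Tal2, Nhlh1 and Nhlh2 had none. A peak over the gene in 5 or 6 lists was found at 10.7% of all genes. A longer gene has more room for peaks, and the lengths of these genes were not compared with those of all genes. Of 16 red cell and platelet genes that the complex is known to act on, 5 had Hdac1 in at least 2 lines (Klf1, Nfe2, Tfrc, Kit and Itga2b; 31.2%, all genes 30.2%), 1 had Hdac2 (Gp1ba; 6.25%, all genes 10.6%) and 9 had no end peak in any list (all genes 52.2%). These shares are near those of all genes. Those 5 had their end peaks in the lists that Lyl1 had them in, Hdac1 and Hdac2 of Bry and Hdac1 of Hd1_loxlox, and in no other, as had 8.45% of all genes. Gata6, Zfpm2, Fli1 and Kdr of the other lists had the same pattern. The Hd2lox lists had an end peak at 0 of the 16 genes, against 24.3% of all genes for Hdac1 and 13.5% for Hdac2. Of 8 endothelial genes, 1 (Kdr) had Hdac1 in at least 2 lines (12.5%), and of 10 genes of other cell types 2 had it (Nkx2-5 and Sox17), where the share of all genes was 30.2%. Hdac2 in at least 2 lines was found at no gene of either list (all genes 10.6%).

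The genes most like each member were taken by the smallest Euclidean distance of log2(covered bp + 1) over the 6 lists, in the gene and 1000 bp either side, leaving out genes within 1 Mb of the member. Distances were small for the members with 1 place: Ung (0.0750) and Derl2 (0.0997) were nearest to Lmo2, and Fbxo30 (0.148) and Camsap1 (0.158) to Ldb1. For Lyl1 they were Gm52006 (0.180) and Gadd45g (0.210), for Gata2 Trio (0.583) and Tshz1 (0.593), and for Tal1 Sox11 (0.590) and Bicral (0.681). Zfpm1, with many peaks, had the most distant neighbours, Nol4l (0.918) and Zmiz1 (1.03).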

How the data were processed

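Per the labels, chromatin of 9 libraries was prepared with a Diagenode kit, and peaks of 6 were analysed here. Per the submitters' processing notes, bcl2fastq, Bowtie2 2.2.9, SAMtools 1.3.1, MACS2 2.1.1.20160309 and the mm10 build were used. For the peak threshold and the control, the setting is not given in the sources used here. Deposited values are other than counts: the authors gave each peak's chromosome, start and end only, 1 list per library, with no score.

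Genes were located with RefSeq (GRCm38.p6). A gene end carried a peak that overlapped the 1000 bp either side by at least 1 bp, and neighbourhoods ran 50 kb either side. Covered bases were compared by an exact two-sided permutation test of 3 lists against 3, with Benjamini-Hochberg adjustment over all genes with a covered base, in Python 3.11.15 with numpy 2.4.6 and pandas 2.3.3. No label says that the lines were separate cultures, so p-values measure only the spread between these libraries. The lists of both antibodies pair by cell line. The overlap code was checked by direct counting on random intervals over the Hdac1 list of Bry. The permutation code was tested on simulated data.

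The members and gene lists were chosen with earlier results of these data known. The naming rule took the members, genes sharing their peaks, list genes with end peaks in 5 or 6 lists (at most 4 a list) and the 2 genes nearest to each member in pattern. Other list genes, and the genes at the peaks nearest to Gata1, were named after their values were seen.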

Additional observations from a re-analysis of the deposited data

Results flagged for a closer look

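At Ldb1 and Zfpm1 the lines differed in which antibody covered more bases within 50 kb. At Ldb1 the Hdac1 minus Hdac2 covered length was -1224 bp in Bry, 4758 bp in Hd1_loxlox and 2284 bp in Hd2lox. At Zfpm1 it was -4474 bp in Bry, 4863 bp in Hd1_loxlox and 2174 bp in Hd2lox. Each line has 1 list per antibody, and the difference between lines was not tested.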

How the results depend on the processing

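Of 99 alternative values, 92 kept their direction and stayed within the spread between lines or, for a count, within 1.5 times of it. This is a loose limit, since the median spread of 2360 bp exceeds the median difference of 1798.7 bp. The Lyl1 difference of 383.5 bp without Hd1_loxlox, in place of 5258.3 bp, is among the 92. Some settings could not change a value, such as the block by line, which alters only the p-value. The 92 thus do not measure how firm the results are. With the starts of the promoter table, added after seeing the data, the members with a peak in at least 2 lines numbered 5 for Hdac1 in place of 3 and 2 for Hdac2 in place of 1. Leaving out 1 line at a time, the Hdac2 count at gene ends ranged from 0 to 1. It was 0 without Bry and without Hd2lox, since both settings then require the Hd1_loxlox Hdac2 list. The Zfpm1 difference of 854.3 bp ranged from -1150.0 bp (without Hd1_loxlox) to 3518.5 bp (without Bry) when 1 line was left out, and was -921.2 bp without the Hd1_loxlox Hdac2 list alone. Counted as peaks it was -1.3 peaks, and the cause was not tested. Within 100 kb, 7 members had Hdac1 in at least 2 lines in place of 6 within 50 kb, and 6 had Hdac2 in place of 4. The shares of all genes were 56.7% and 49.2% within 50 kb. They cannot fall at the longer distance, where they were not computed. With the replicate block, a sign-flip by cell line whose smallest p is 0.25, the exact permutation p was 0.25 at Tal1, Lyl1, Lmo2 and Gata2, 0.5 at Ldb1 and 0.75 at Zfpm1. Read depth is unknown and limits every statement that a peak was not found.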

Other observations

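Neighbouring genes carried part of the peaks near the members. Pprc1, a coactivator gene beside Ldb1, had a peak in 4 lists, and Nolc1, a nucleolar protein gene, in 3. Ier2, an immediate early gene near Lyl1, had peaks in both Bry lists and in Hdac1 of Hd1_loxlox, where they were 3592 bp wide for Hdac1 in Bry and 3572 bp in Hd1_loxlox. Zc3h18, a zinc finger gene past Zfpm1, had a peak in 5 lists.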
